A study of Mus musculus with 6 samples.

Results

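The genes described here are Clpx, Clpp, Lonp1, Hspd1, Hspa9, Grpel1, Clpb, Phb2, Yme1l1 and Eral1, which encode proteases, chaperones and a protease substrate of mouse mitochondria. They were chosen by name, and all peaks carrying these names were taken from both deposited tables of N6-methyladenosine (m6A) peaks. In the comparison of ClpP cKO with WT, 9 of the 10 genes carried 16 of the 24127 listed peaks, and in that of ClpX cKO with WT all 10 carried 17 of 23681. The material was male germ cells called spermatocytes, taken at postnatal day 35, and each of the 3 genotypes gave 1 immunoprecipitated (IP) and 1 input library. ClpP cKO and ClpX cKO mice carried a conditional knockout of ClpP or of ClpX made with Stra8-Cre, a transgene in which the Stra8 promoter drives Cre recombinase in male germ cells from the spermatogonial stage on. The WT libraries served both comparisons. The sources used here do not say whether WT animals carried Cre or floxed alleles, or whether animals were pooled.

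In m6A-seq an antibody captures RNA fragments that hold m6A, and a peak is a stretch of a transcript where the captured (IP) library is enriched over the input library. Fold enrichment is the linear ratio of IP to input, given once per peak in each table. The log2 fold change compares that enrichment between genotypes, and a positive value is read as higher in the knockout, because the knockout is named before WT in each table, which is the sole basis for the direction. All signs below turn round if the ratio runs the other way. Calls rest on an adjusted p under 0.05, as the authors computed it. With 1 library per group no value has a replicate error, and a call compares these libraries, not the genotypes in general. In bulk RNA, fewer cells of a type and less RNA or methylation per cell cannot be told apart. The sequencing depth of the libraries is unknown, as the tables hold no read counts.

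Mitochondria import nearly all their proteins as unfolded chains and must fold them or degrade them. In the matrix, the Hsp70 chaperone Hspa9 pulls chains in and folds them with its nucleotide exchange factor Grpel1, the Hsp60 chamber formed by Hspd1 folds a subset further, and the ATP-dependent proteases Lonp1 and ClpXP remove damaged or surplus proteins. In ClpXP, a ring of ClpX unfolds a substrate and threads it into the barrel of ClpP, which cuts it. Clpb is a disaggregase of the intermembrane space, and Phb2 and Yme1l1 are proteins of the inner membrane, so the set reaches beyond the matrix. Loss of mouse Clpp is known to cause male infertility.

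Of markers chosen for the labelled cells, 7 of 10 spermatocyte genes had a listed peak in the ClpP comparison and 6 of 10 in the ClpX comparison. The meiotic genes Hormad2 and Ccna1 had none in either. Spermatogonium markers had peaks for 4 of 4 genes in each, spermatid markers for 5 of 6 and 6 of 6, Sertoli cell markers for 5 of 6 in each, and Leydig cell markers for 2 of 5 and 4 of 5. Peritubular, endothelial and immune markers had peaks for 1 of 6 and 2 of 6 genes. A missing peak does not show that a gene is not expressed, and the part of other cell types in the results below was not tested.

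In ClpP cKO against WT, 5 peaks on 4 of the genes were called. Enrichment was higher on Hspa9 and Grpel1 and at a site in the middle of Phb2, and lower at the end-side sites of Phb2 and Yme1l1. That is 3 of 16 peaks called higher, beside 6.74% of all peaks of the comparison, and 2 of 16 called lower, beside 12.8%. The members' median log2 fold change was 0.39, against -0.034 over all peaks.

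In ClpX cKO against WT, 4 peaks were called, all higher, on Clpb, Hspa9, Phb2 and Grpel1. These are 4 of 17 peaks, beside 15.1% of all peaks called higher, and 0 of 17 were called lower, beside 5.0%. At an unadjusted p under 0.05 the numbers were 7 higher, beside 20.7% of all peaks, and 1 lower, beside 8.91%. The members' median was 0.93, against 0.239 over all peaks, and 15 of the 17 values lay above 0, as did 58% of all peaks. Relative to that median of all peaks, 3 uncalled ClpX values moved to 0 or below, namely a Lonp1 site, Hspd1 at -0.17 and the end-side Grpel1 site at -0.09. Of all calls in ClpX cKO 75.1% were higher, against 44.9% once the median was subtracted and p read in 2 directions. No test sets these small counts apart from the background of either comparison. The 2 comparisons share the WT libraries, so values of a site in both are given side by side and their likeness is not used as a result.

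**Figure D1:**
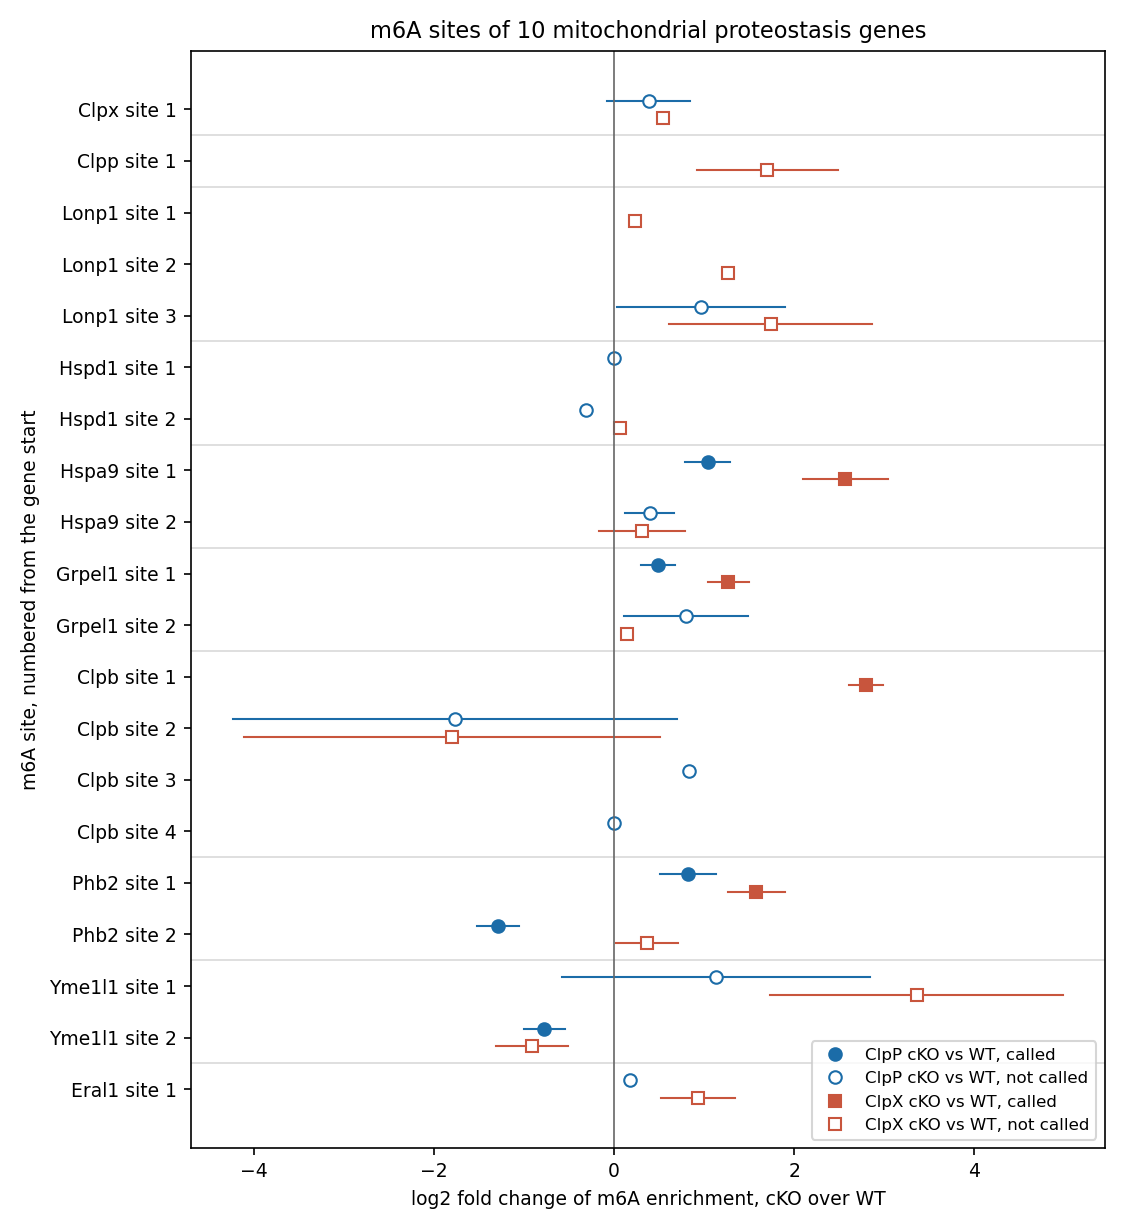
The log2 fold change of m6A enrichment (cKO over WT, horizontal axis) at each of the 20 sites of the 10 genes, with ClpP cKO as circles and ClpX cKO as squares. Filled symbols are peaks the authors' adjusted p calls and open ones are not called, and bars show 1 standard error implied by the deposited p where that p is under 0.3. The called sites on Hspa9, Grpel1 and Clpb lie to the right of 0, while Phb2 has a called site on either side in ClpP cKO.

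The subunits of the protease itself were not called. Clpx (ENSMUSG00000015357, GRCm38 chromosome 9, plus strand, 65294251 to 65330658) had 1 peak near its end, at 65329852 to 65330240 in the ClpP comparison and 65329882 to 65330240 in the ClpX comparison. Its fold enrichment was 6.64 in the ClpP comparison and 6.62 in the ClpX comparison in the authors' deposited table. Its log2 fold change in the authors' deposited table was 0.38 in ClpP cKO (adjusted p 0.412) and 0.55 in ClpX cKO (adjusted p 0.608). The value in ClpX cKO cells is thus not distinguished from 0, and it lies near the median of 0.48 for peaks of like enrichment.

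Clpp (ENSMUSG00000002660, chromosome 17, plus strand, 56990264 to 56996371) had no listed peak in the ClpP comparison. In the ClpX comparison it had a peak at 56996039 to 56996188, and the authors' deposited table gives it a fold enrichment of 3.23, 1.70 as log2 fold change (adjusted p 0.0692). This peak ends 183 bases before the end of the gene span. The exons removed in Clpp and Clpx are not stated, and a peak outside the removed part checks nothing about the genotype.

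Lonp1 (ENSMUSG00000041168, chromosome 17, minus strand, 56614297 to 56626903), the other main protease of the matrix, carried 1 peak in the ClpP comparison and 3 in the ClpX comparison. The end-side peak is common to both, at 56614357 to 56614507 (ClpP) and 56614417 to 56614537 (ClpX). Its log2 fold change in the authors' deposited table was 0.96 in ClpP cKO (adjusted p 0.348) and 1.74 in ClpX cKO (adjusted p 0.195). The other sites, at 56618501 to 56618621 and 56619190 to 56619370, had 1.26 and 0.23 in ClpX cKO in the authors' deposited table, at adjusted p 0.619 and 0.644. No Lonp1 site was called, although all its values lay above 0. Its end-side peak was weakly enriched, at 2.30 (ClpP) and 2.34 (ClpX) in the authors' deposited table.

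Among the folding proteins, no site of Hspd1 was called, while Hspa9 and Grpel1 each had 1 site called higher in both knockouts and 1 site not called. Hspd1 (ENSMUSG00000025980, chromosome 1, minus strand, 55077833 to 55088243) had an end-side site at 55078161 to 55078428 (ClpP) and 55078191 to 55078428 (ClpX). The authors' deposited table gives it log2 fold changes of -0.31 in ClpP cKO (adjusted p 0.543) and 0.07 in ClpX cKO (adjusted p 0.647). A further site in the ClpP comparison, at 55084565 to 55084714, is listed at 0 (adjusted p 0.729) by the authors' deposited table. RefSeq names 5 pseudogenes of Hspd1, and reads of near-identical copies may have been assigned to either locus. Among them Hspd1-ps3 on chromosome 11 (41500161 to 41500458), looked at after its values were seen, carried a peak called higher in ClpP cKO, at 1.55 (adjusted p 0.0398) by the authors' deposited table.

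Hspa9 (ENSMUSG00000024359, chromosome 18, minus strand, 34937414 to 34954351) carried 2 adjacent sites near the end of its span. The start-side site was called higher in both knockouts, at 34938551 to 34938790 in the ClpP comparison and 34938611 to 34938731 in the ClpX comparison. Its log2 fold change in the authors' deposited table was 1.04 in ClpP cKO (2.06-fold, adjusted p 0.0002) and 2.57 in ClpX cKO (5.94-fold, adjusted p 6.76e-07). If the deposited p is read as a normal test in 1 direction, the implied standard errors are 0.249 and 0.475. The end-side site, with the same bounds of 34938162 to 34938461 in both, had 0.39 in ClpP cKO (adjusted p 0.227) and 0.31 in ClpX cKO (adjusted p 0.476) in the authors' deposited table. The sites are 89 bases apart in the ClpP comparison and 149 in the ClpX comparison, and their log2 fold changes differed by 0.65 and 2.26. The called site was the weaker in enrichment, at 1.62 against 3.89 (ClpP) and 1.49 against 3.05 (ClpX) in the authors' deposited table. Hspa9 has 1 pseudogene named in RefSeq, so assignment of reads between copies is uncertain here too.

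Grpel1 (ENSMUSG00000029198, chromosome 5, plus strand, 36465185 to 36474077) likewise had 2 sites, and again the start-side site was called higher in both knockouts. That site lay at 36471151 to 36471659 (ClpP) and 36471121 to 36471629 (ClpX), with fold enrichments of 4.59 and 4.76 in the authors' deposited table. Its log2 fold change there was 0.49 in ClpP cKO (1.40-fold, adjusted p 0.0269) and 1.27 in ClpX cKO (2.41-fold, adjusted p 1.38e-07), per the authors' deposited table. The end-side site, at 36472855 to 36473452 (ClpP) and 36472765 to 36473363 (ClpX), had 0.79 (adjusted p 0.306) and 0.15 (adjusted p 0.625) in the authors' deposited table and was not called. Of the 4 calls in ClpX cKO, the Grpel1 site alone lay outside the lowest quintile of fold enrichment. The ClpP call is the weaker: it was lost when p-values were doubled or the threshold was set at 0.01.

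Clpb (ENSMUSG00000001829, chromosome 7, plus strand, 101663596 to 101795460) held both the strongest call and some of the least certain values among the members. In the ClpX comparison a peak at 101786889 to 101787863 (2 blocks) stood at 2.80 on the log2 scale (6.96-fold, adjusted p 2.51e-49) by the authors' deposited table. It ranked 51st by p among all 23681 peaks, and 6.92% of peaks called higher had a change as large. This peak was weakly enriched, at 1.76 in the authors' deposited table, and no peak was listed at these bases in the ClpP comparison. The next site, 599 bases further on, ran from 101788463 to 101788793 (ClpP) or 101788823 (ClpX) and had the opposite sign, -1.77 in ClpP cKO (adjusted p 0.445) and -1.80 in ClpX cKO (adjusted p 0.435) in the authors' deposited table. Its implied standard errors of 2.47 and 2.31 exceed the changes themselves. The remaining sites, at 101789513 to 101789753 and 101795206 to 101795326, were listed in the ClpP comparison alone, at 0.83 and 0 on the log2 scale by the authors' deposited table, not called.

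At the inner membrane, Phb2 had calls in opposite directions within its transcript. Phb2 (ENSMUSG00000004264, chromosome 6, plus strand, 124712289 to 124716945) is a prohibitin, which forms ring-shaped scaffolds with Phb and is a receptor in mitophagy. Its middle site, at 124714867 to 124715117 (ClpP) and 124714777 to 124715117 (ClpX), is listed in 2 blocks. The authors' deposited table gives this site log2 fold changes of 0.82 in ClpP cKO (1.77-fold, adjusted p 0.0257) and 1.58 in ClpX cKO (2.99-fold, adjusted p 4.27e-06). The end-side site, at 124716524 to 124716950 in both, had -1.29 in ClpP cKO (0.409-fold, adjusted p 3.24e-07) and 0.37 in ClpX cKO (adjusted p 0.343) in the authors' deposited table. It was thus called lower in ClpP cKO and not called in ClpX cKO, and whether it differs between the knockouts was not tested. In ClpP cKO the 2 sites differed by 2.11 on the log2 scale and in ClpX cKO by 1.22. Fold enrichment was 1.43 at the middle site and 5.42 at the end-side site in the ClpP comparison in the authors' deposited table. The call at the middle site in ClpP cKO was lost with doubled p-values or a threshold of 0.01.

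Yme1l1 (ENSMUSG00000026775, chromosome 2, plus strand, 23155442 to 23199260), an ATP-dependent protease of the inner membrane that faces the intermembrane space, had a site at each end of the gene. The end-side site, at 23195352 to 23197310 (ClpP) and 23195382 to 23197310 (ClpX), was the most strongly enriched member site in the ClpP comparison, with 15.9 in that comparison and 13.7 in the ClpX comparison in the authors' deposited table. It was called lower in ClpP cKO, at -0.78 (adjusted p 0.00316) by the authors' deposited table. In ClpX cKO its value was -0.92, adjusted p 0.0525 by the authors' deposited table, just outside the threshold. Once the median of all peaks, 0.239, was subtracted the ClpX value was -1.16 and was called lower. Peaks of like enrichment had a median of 0.00 in ClpX cKO, and a call relative to that median was not tested.

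The start-side Yme1l1 site, at 23156399 to 23156549 (ClpP) and 23156399 to 23156579 (ClpX), had the highest log2 fold change of any member in each comparison, 1.13 in ClpP cKO (adjusted p 0.461) and 3.36 in ClpX cKO (adjusted p 0.0832) in the authors' deposited table. Neither was called, and the implied standard errors were 1.71 and 1.63. Of the member peaks it is the 1 site that a RefSeq promoter window covers, so its letters can be shown: of the 151 bases of the ClpP peak, 106 lie before the start site of that window at 23156505 and 45 from it on. Transcript strand words of the m6A consensus were searched for, which read any base but C, a purine, A, C and any base but G. The 30 bases that hold both matches of this peak are printed 5′ to 3′ with the matches in capitals (RefSeq, GRCm38.p6, chr2:23156402-23156431, plus strand).
Yme1l1 start-side site: tcgaaAAACCaccccaaagTGACAgagtcc
The matches are AAACC, from 23156407, and TGACA, from 23156421. Both lie before the start site at 23156505, outside the RNA of a transcript that begins there. The opposite strand of the peak held 2 further words. Such words are common: 88.3% of 32844 promoter stretches of the same length and offset held at least 1 on the transcript strand, and 97.9% on either strand. The form GGACT, common among m6A sites, was absent from the transcript strand and present once on the other strand, and 14.4% of stretches held it on the transcript strand and 26.1% on either. A match describes the letters only and does not show which base was methylated.

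Eral1 (ENSMUSG00000020832, chromosome 11, minus strand, 78073376 to 78080383) encodes a GTPase that binds mitochondrial 12S ribosomal RNA during assembly of the small ribosomal subunit, and in mouse heart it is a ClpXP substrate. Its single peak, in 2 blocks, lay at 78073823 to 78074406 (ClpP) and 78073823 to 78074316 (ClpX). The log2 fold change in the authors' deposited table was 0.17 in ClpP cKO (adjusted p 0.541) and 0.93 in ClpX cKO (1.90-fold, adjusted p 0.0575). The ClpX value lay just outside the threshold and carried an implied standard error of 0.412. Protein levels, on which a protease acts, were not measured in these libraries.

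The sites of the members fell mostly at the ends of their genes. In the ClpP comparison 10 of 16 member peaks and in the ClpX comparison 11 of 17 had their midpoint in the last 10% of the gene span, beside 38.8% and 37.3% of all peaks placed on a RefSeq gene. Spans include introns, so these are positions in the gene and not in the transcript, and a split by UTR and coding part was not made here. Of the 20 member sites 13 are in both comparisons, so the 2 counts are not independent. Whether either count differs from the share over all peaks was not tested. In the ClpP comparison the sites farthest from the gene end were the start-side site of Yme1l1, at 0.024 of the span from the gene start, the Hspd1 site at 0.346 and the middle site of Phb2 at 0.581. Member peaks were 121 to 598 bases long (ClpP) and 121 to 599 (ClpX), with medians of 284 and 300, against 301 and 300 over all peaks. None of the member peaks shared bases with another peak of its comparison.

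**Figure D2:**
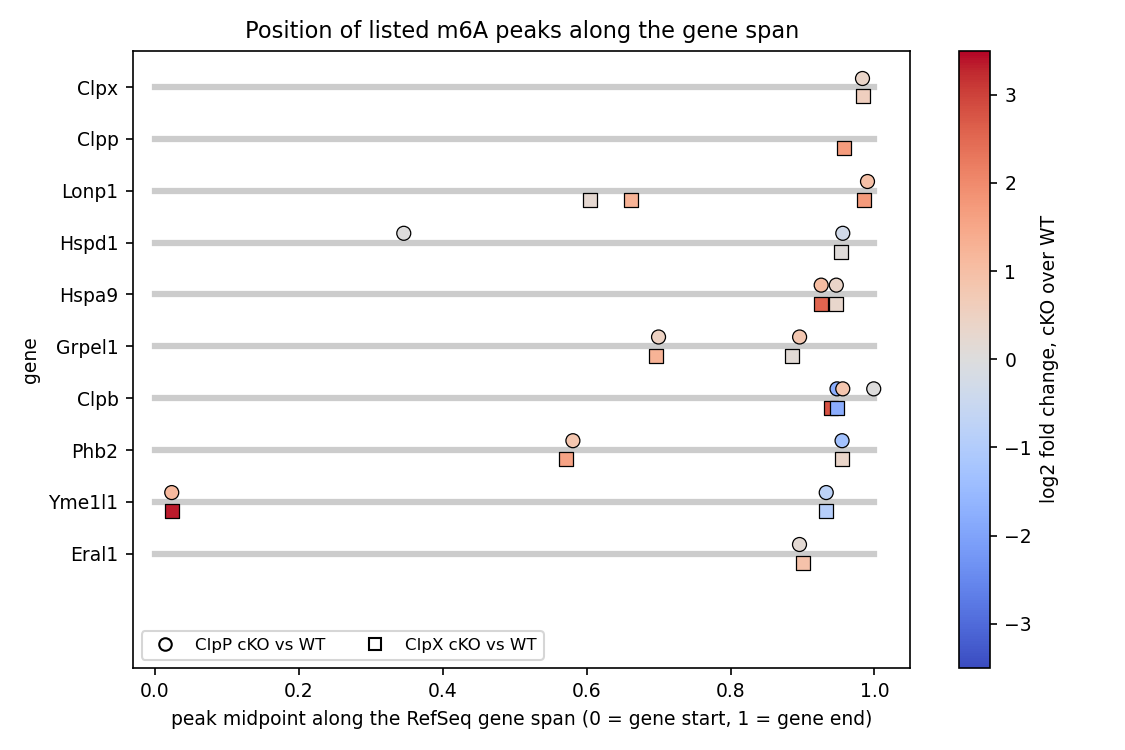
The midpoint of each member peak along its RefSeq gene span (horizontal axis, 0 at the gene start and 1 at the gene end), with ClpP cKO as circles above ClpX cKO as squares. Colour gives the log2 fold change (cKO over WT). Most peaks sit near 1, and the start-side Yme1l1 site, near 0, has the deepest red.

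The share of peaks called higher was larger at low fold enrichment. Over all peaks, the share called higher in ClpX cKO was 33.2% in the lowest quintile of fold enrichment (1.12 to 3.79) and 3.46% in the highest (17.1 to 220), and for ClpP cKO it was 15.6% in the lowest (1.12 to 3.52) and 2.86% in the highest (16.7 to 275). The share called lower was 1.29% in the lowest and 11.7% in the highest quintile in ClpX cKO, and lay between 11.4% and 15.7% in every quintile in ClpP cKO. In ClpX cKO, 3 of the 4 members called higher (Clpb, Hspa9 and Phb2) lay in the lowest quintile, which held 6 of the 17 member peaks. In ClpP cKO 2 of the 3 called higher (Hspa9 and the middle site of Phb2) did so, and that quintile held 3 of the 16. No member peak reached the highest quintile in either comparison. The Clpb and Hspa9 values of 2.80 and 2.57 in ClpX cKO in the authors' deposited table stood above the quintile's median of 0.81, as did 1.58 for Phb2. The members' median fold enrichment was 5.50 in the ClpP comparison and 6.41 in the ClpX comparison, against 8.23 and 8.90 over all peaks. The part of enrichment strength in these calls was not tested.

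**Figure D3:**
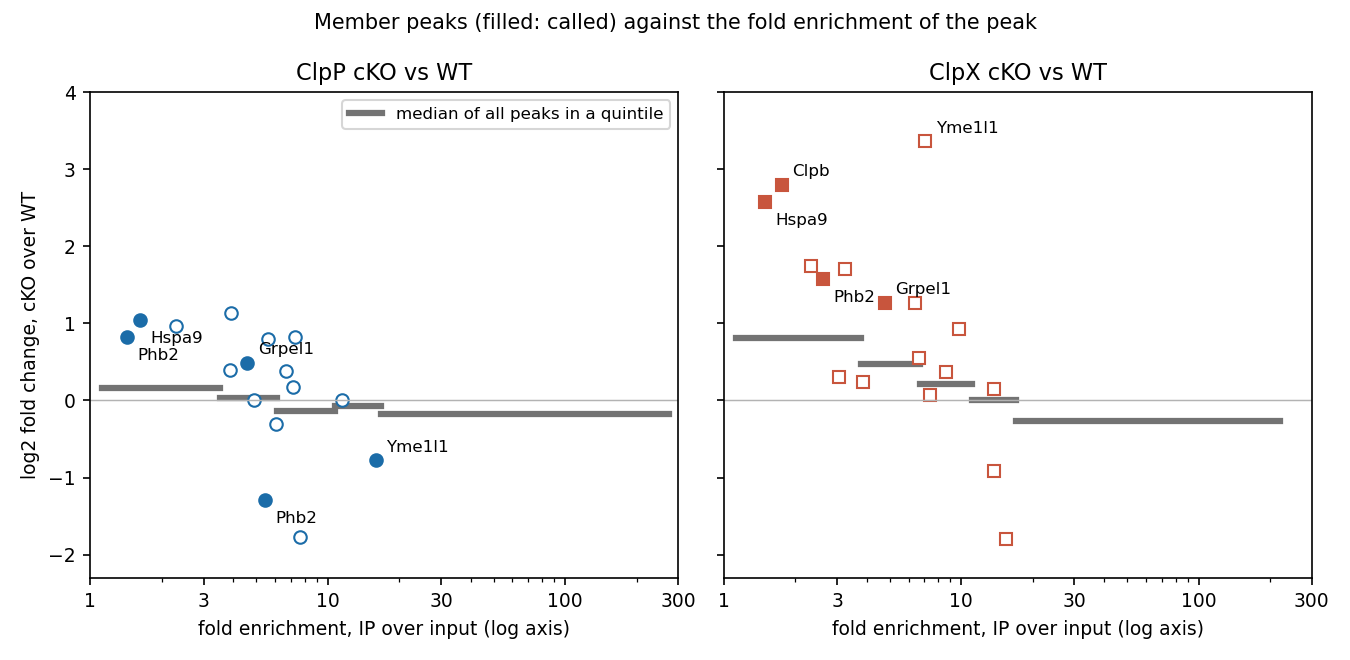
Log2 fold change (cKO over WT) of each member peak against its fold enrichment of IP over input on a log axis, for ClpP cKO (left, circles) and ClpX cKO (right, squares), with called peaks filled. Grey bars are the median over all peaks in each quintile of fold enrichment, which runs from 0.81 down to -0.26 in ClpX cKO. Clpb and Hspa9 stand high at the weakly enriched end.

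Beyond the members, 42 other genes of mitochondrial proteostasis were looked at, of which 32 had a peak in the ClpP comparison and 31 in the ClpX comparison, each gene taking its peak of smallest p. In ClpP cKO 3 were called higher, beside 9.50% of all genes, and 3 lower, beside 19.3%. In ClpX cKO 7 were called higher, beside 21.7%, and 3 lower, beside 7.58%. Their median log2 fold change was -0.15 in ClpP cKO and -0.07 in ClpX cKO, against -0.158 and 0.363 over all genes. By the same choice of peak, the 9 members with a peak in ClpP cKO had a median of 0.17, with 2 called higher and 2 lower. All 10 had one in ClpX cKO, with a median of 1.43, 4 called higher and 0 lower.

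Of 7 protein import genes with a peak in ClpP cKO, 2 were called higher, beside 9.50% of all genes, and 0 lower, beside 19.3%. Of 6 in ClpX cKO, 4 were called higher, beside 21.7%, and 0 lower, beside 7.58%. No test sets these counts apart from all genes. The list's median log2 fold change was -0.14 in ClpP cKO and 1.16 in ClpX cKO. The receptor Tomm22 (chromosome 15, 79672663 to 79672870) had log2 fold changes of 0.43 in ClpP cKO (adjusted p 0.00355) and 1.48 in ClpX cKO (adjusted p 5.01e-12) in the authors' deposited table. The channel protein Tomm40 (chromosome 7, 19701313 to 19701582 for ClpP and to 19701612 for ClpX) had 1.32 (adjusted p 0.0263) and 2.19 (adjusted p 3.72e-05) in the authors' deposited table. Also called higher in ClpX cKO were a site of the receptor Tomm70a, at 1.77, and the inner membrane translocase subunit Timm17a, at 0.76, by the authors' deposited table. Uncalled Tomm70a sites of that comparison had -0.628 (fold enrichment 3.48) and -0.005 (fold enrichment 7.4). The called Tomm70a site, with a fold enrichment of 1.8, lay in the lowest quintile. So did the Tomm22 peak, at 2.27 (ClpP) and 2.67 (ClpX), but not the called peaks of Tomm40 and Timm17a. Timm23, Pam16 and Tomm20 had no listed peak in either comparison.

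Regulators and clients of the proteases went both ways. Pink1, the kinase that marks damaged mitochondria for mitophagy, was called higher in both, at 0.55 in ClpP cKO and 1.0 in ClpX cKO in the authors' deposited table. Tfam, which packs mitochondrial DNA and is a Lonp1 substrate, had a site called lower in ClpP cKO, at -1.18 in the authors' deposited table. So did the GTPase Noa1, a ClpXP substrate, at -1.02 and the rhomboid protease Parl at -2.26 in the authors' deposited table. In ClpX cKO these same sites had -0.656 for Tfam (adjusted p 0.245), -0.0121 for Noa1 (adjusted p 0.63) and -2.11 for Parl (adjusted p 0.128). None of these was called, and a difference between the knockouts was not tested. Each of the 3 genes also had an uncalled site above 0 in ClpP cKO, at 0.68 for Tfam, 0.30 for Noa1 and 0.95 for Parl in the authors' deposited table. In ClpX cKO the mitochondrial elongation factor Gfm1 was called lower at -1.83 and the import motor co-chaperone Dnajc15 at -0.57, while the intermembrane space protease Htra2 was called higher (1.60 by the authors' deposited table). The Htra2 peak shares bases with a peak of Loxl3, so its gene is uncertain.

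Among the stress transcription factors, Atf4, the effector of the integrated stress response, had 2 peaks called higher in ClpX cKO, at 1.65 (chromosome 15, 80256646 to 80257422, adjusted p 2e-23) and 0.90 (80255453 to 80255661, adjusted p 0.0123) in the authors' deposited table. These called peaks had fold enrichments of 3.34 and 2.56, in the lowest quintile, where the median log2 fold change of all peaks was 0.81. A further Atf4 peak in the ClpX comparison, at 80255274 to 80255393, had a fold enrichment of 13.7. It is listed at 0 by the authors' deposited table and was not called. The ClpP peaks of Atf4, at 0.03 and 0.58 in the authors' deposited table, were not called. Ddit3, which encodes CHOP, had 2 sites called in opposite directions in ClpX cKO, -1.50 at 127290774 to 127293771 and 0.57 at 127295757 to 127296288 on chromosome 10 in the authors' deposited table. The Ddit3 site at 127295757 to 127296288 has the same bounds in the ClpP comparison, where it shares bases with a peak of Mars. The gene of that site is therefore uncertain. No peak of Atf5 was called in either comparison. Of the 6 other chaperones and co-chaperones with a peak none was called in ClpP cKO, beside 9.50% of all genes called higher and 19.3% lower. Of 5 in ClpX cKO Dnajc15 was the 1 called, lower, beside 21.7% of all genes called higher and 7.58% lower. This list leaves out the members Hspd1, Hspa9, Grpel1 and Clpb, given above. No test sets these counts apart from all genes.

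**Figure D4:**
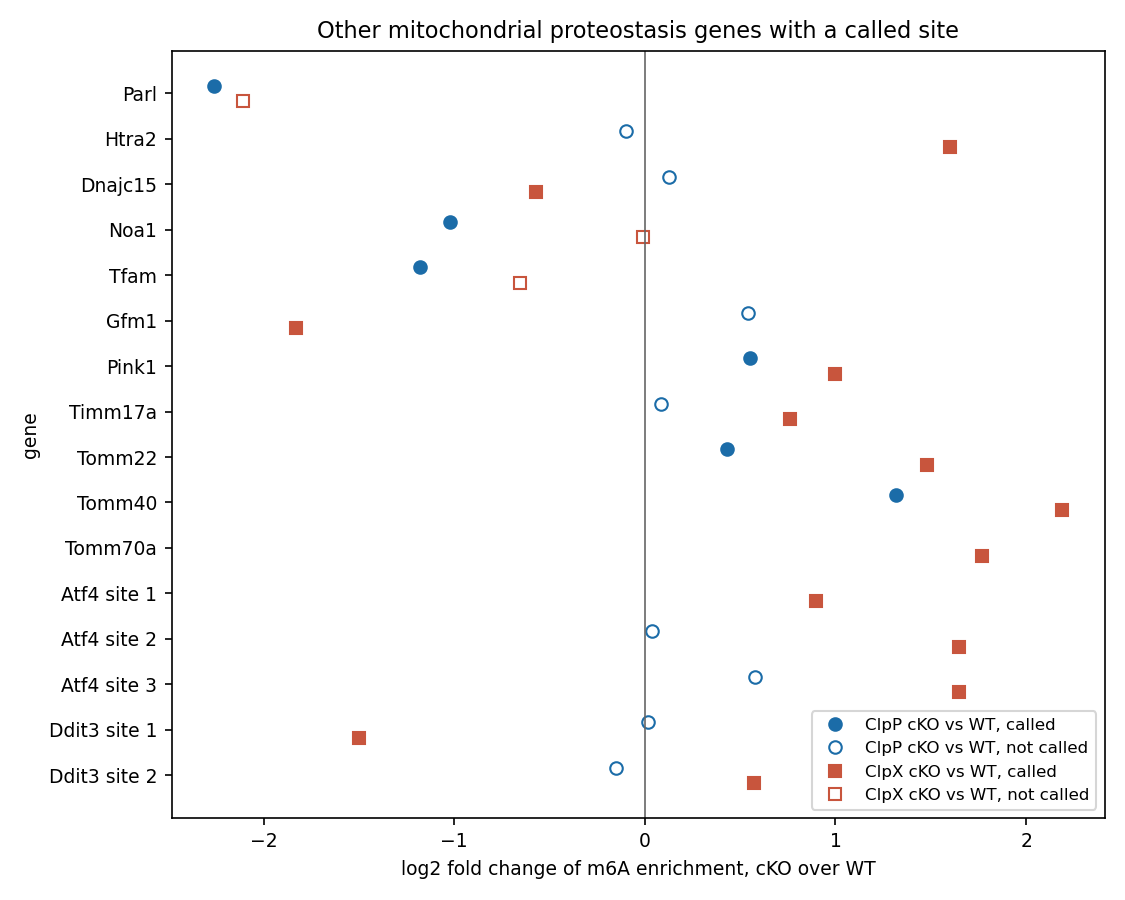
Log2 fold change of m6A enrichment (cKO over WT) at each site of the other mitochondrial proteostasis genes that was called in at least 1 comparison, with ClpP cKO as circles and ClpX cKO as squares, filled where called. Atf4 sites 2 and 3 are separate peaks in the ClpP comparison and 1 peak in the ClpX comparison, which is drawn at both. The sites drawn for import genes (Timm17a to Tomm70a) lie to the right of 0, while Parl, Noa1, Tfam and Gfm1 include called sites to the left. Sites called in neither comparison are not drawn, and some of those on import genes had values below 0.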

How the data were processed

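m6A-seq gave 1 IP and 1 input library for each of ClpP cKO, ClpX cKO and WT. The tables hold the authors' own comparisons. Per the submitters' processing notes, the build was GRCm38 (mm10). The sources used here name no aligner, peak caller or depth normalisation. Each peak has, per the file headers, a p-value, scores that are the log10 of p and adjusted p, a fold enrichment (linear ratio of IP over input), and a log2 fold change with log10 scores of its p and adjusted p. The largest adjusted p for a peak itself was 0.0427 (ClpP) or 0.0407 (ClpX). Recomputed Benjamini-Hochberg values lay within 0.05 (log10) of the deposited ones for 99.4% (ClpP) and 99.3% (ClpX) of peaks. Peaks with an absolute log2 fold change under 0.05 had a median deposited p of 0.546 (ClpP) and 0.57 (ClpX), where a p for both directions would lie near 1, so doubled p-values were added as an alternative after the data were seen.

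Standard errors were derived here from p and log2 fold change as if from a normal test, and cover no spread between animals. Peaks of both tables were matched by at least 1 shared base, block by block. Gene spans came from RefSeq (GRCm38.p6), matched by symbol for all 10 members. All members and every called gene of the pathway lists are named. Members, lists, thresholds and alternatives were chosen with earlier results of these data known. Motif words came from RefSeq promoter windows, since no genome was used here. The centring was tested on simulated data with a shift common to all peaks and changes even in sign. In ClpX cKO the median ran from 0.81 in the lowest quintile of fold enrichment to -0.26 in the highest. The simulation does not cover such a shift. Python 3.11.15, pandas 2.3.3, scipy 1.17.1 and matplotlib 3.10.9 were used.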

Additional observations from a re-analysis of the deposited data

Results flagged for a closer look

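At sites found in both comparisons, opposite signs in ClpP cKO and ClpX cKO were singled out. They occurred at 2 of 13 member sites and 15 of 42 sites of the other pathway genes. Of these 15, the 5 with a call are given here and the other 10, with no call in either knockout, are left out. The 42 sites include 1 Atf4 peak of the ClpX comparison 2 times, since it overlaps 2 peaks of the ClpP comparison. The share of opposite signs over all peaks found in both comparisons was not computed, so these counts have no background beside them. With 1 library per group the difference between the knockouts was not tested, and both share the WT libraries. The end-side Phb2 site had -1.29 in ClpP cKO, called lower, and 0.365 in ClpX cKO, not called, in the authors' deposited table. The end-side Hspd1 site had -0.311 in ClpP cKO and 0.0671 in ClpX cKO in the authors' deposited table, neither called. Relative to the median of all peaks of each comparison, the Hspd1 values were -0.28 in ClpP cKO and -0.17 in ClpX cKO, of the same sign. Those of Phb2, at -1.26 and 0.13, stayed opposite. Among the other pathway genes, Htra2 had -0.0963 in ClpP cKO and 1.6 in ClpX cKO, Dnajc15 had 0.128 in ClpP cKO and -0.57 in ClpX cKO, and Gfm1 had 0.539 in ClpP cKO and -1.83 in ClpX cKO in the authors' deposited table, each called in ClpX cKO alone. The start-side Ddit3 site had 0.0163 in ClpP cKO and -1.5 in ClpX cKO and its other site -0.151 in ClpP cKO and 0.571 in ClpX cKO in the authors' deposited table, again called in ClpX cKO alone.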

How the results depend on the processing

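No paired analysis was possible because each group held 1 library and the values are the authors' comparisons. Member peaks called higher in ClpP cKO, 3 as reported, numbered 1 at an adjusted p under 0.01, with a change of 1 or more (log2, either sign), with a fold enrichment of at least 2 and with doubled p-values. Those called lower, 2 as reported, numbered 1 with the minimum change of 1. In ClpX cKO the 4 called higher numbered 7 at an unadjusted p under 0.05 and 2 with a fold enrichment of at least 2, which leaves 15 of the 17 peaks, and the 0 called lower became 1 (Yme1l1) at an unadjusted p and after subtraction of the median with either reading of p. Of the other pathway genes, the 3 called higher in ClpP cKO numbered 6 at an unadjusted p, 1 with the minimum change and 5 after subtraction of the median with p read in 2 directions, and the 3 called lower numbered 1 at 0.01 and 6 at an unadjusted p. In ClpX cKO the 3 called lower numbered 1 at 0.01 and 8 after that subtraction. No called member value changed sign under these alternatives, but subtracting the median took 3 uncalled ClpX values (Lonp1, Hspd1 and Grpel1) to 0 or below. Over all peaks, the share of calls that were higher in ClpX cKO was 75.1% as deposited, 44.9% after subtraction of the median with p read in 2 directions and 60.2% with p read in 1 direction. Counts over all peaks moved by over 1.5 times in these cases: of 1626 called higher in ClpP cKO, 979 at 0.01 and 2812 unadjusted, of 3096 called lower, 1122 with the minimum change, of 3567 called higher in ClpX cKO, 2236 after subtraction with p read in 1 direction, and of 1185 called lower, 659 at 0.01, 2111 unadjusted and 3230 after subtraction with p read in 2 directions. The 4 member calls in ClpX cKO were kept in both at log2 values of 2.56 for Clpb, 2.33 for Hspa9, 1.34 for Phb2 and 1.03 for Grpel1. Leaving out peaks that share bases with another gene changed no member count, since no member peak does. The depth behind each peak is unknown, so which uncalled sites lacked reads was not tested.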
